A study of Mus musculus with 3 samples.

Results

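Tns1 and Fat4 were followed across the cell types of the mouse mitral valve. They were chosen by name, as a pair of genes linked to mitral valve prolapse, and are 2 of the 3264 genes used from a single-cell expression matrix of 16383 cell barcodes. The 3 samples listed with the matrix are mitral valves of mice with the B6.129-Fbn1tm2Rmz/J label, 12 weeks old and called mgR. These mice make too little fibrillin-1, an extracellular matrix protein, and all 3 samples share that allele. The study also worked with wild-type and rapamycin-treated mice, and with both single cells and single nuclei. No barcode carries a mark of mouse, genotype, treatment or library, so the matrix was treated as 1 pooled sample with no comparison of genotypes and no test. Whether a barcode stands for a cell or a nucleus is not known here, and barcodes are called cells.

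Tns1 encodes tensin 1, a protein of focal adhesions that ties the actin cytoskeleton to integrins, the receptors by which cells hold the matrix. Common human variants near TNS1 have been associated with mitral valve prolapse. Fat4 encodes a very large protocadherin that binds the protocadherin Dachsous on neighboring cells and acts in planar cell polarity and in Hippo signaling, and its link to prolapse runs through that partner, since variants in DCHS1 have been found in families with the disease. In the valve leaflet, interstitial fibroblasts make and keep the matrix, endothelial cells cover its surface, and leukocytes are scattered within it.

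In the GENCODE M21 annotation of GRCm38, Tns1 lies on the minus strand at chr1:73910231-74124449 and Fat4 on the plus strand at chr3:38886940-39011985. The 250 bases before the RefSeq start of each gene are shown as a view of how the 2 genes differ at their 5′ ends, at chr1:74124549-74124798 on the minus strand for Tns1 and at chr3:38886690-38886939 on the plus strand for Fat4 (RefSeq, GRCm38.p6). Each is written 5′ to 3′ with its CpG dinucleotides in capitals.
Tns1: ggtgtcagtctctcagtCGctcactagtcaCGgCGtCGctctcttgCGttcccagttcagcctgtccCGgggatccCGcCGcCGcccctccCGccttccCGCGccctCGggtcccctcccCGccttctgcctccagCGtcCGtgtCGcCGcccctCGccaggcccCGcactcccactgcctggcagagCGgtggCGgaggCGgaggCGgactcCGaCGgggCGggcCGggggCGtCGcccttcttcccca
Fat4: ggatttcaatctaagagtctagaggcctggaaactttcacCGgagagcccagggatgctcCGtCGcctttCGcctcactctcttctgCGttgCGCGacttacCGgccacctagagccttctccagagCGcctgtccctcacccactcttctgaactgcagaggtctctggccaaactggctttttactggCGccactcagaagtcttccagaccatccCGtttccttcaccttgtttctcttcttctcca
The Tns1 stretch holds 30 CpG and the Fat4 stretch 11, against a median of 6 over the 32851 such stretches in the table, and 94.1% and 64.4% of them hold fewer. GC made up 74.4% of the Tns1 bases and 54.8% of the Fat4 bases. The letters GGGCGG, a GC box, were searched on both strands and occurred 3 times before Tns1 and not before Fat4, while 32.7% of all stretches hold them. GGAATG, the letters bound by the TEAD factors of the Hippo pathway, was in neither stretch and in 12.6% of all. The Fat4 stretch lies inside an antisense gene, C230034O21Rik, at chr3:38874570-38888259 on the minus strand. That gene had 125 UMIs over all cells against 5552 for Fat4. Whether counting used the strand is not stated in the sources used here, so reads from the overlap could not be assigned between them.

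Transcripts were counted by unique molecular identifiers (UMIs), and a cell had a median of 5349 UMIs over all genes (503 to 23127). Levels are UMIs of a gene per 10000 of all UMIs of the same cells, with 95% exact Poisson intervals. Ratios of levels have exact conditional intervals, and all intervals cover counting error only. In the order of the file, barcodes fall into 2 alphabetical runs. The first has 14222 cells (median 5154 UMIs), the second 2161 (median 6918), and 11 barcodes occur in both. Levels were also computed in each run.

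Fibroblasts were the cells with UMIs of at least 2 of Prrx1, Col3a1 and Dpt and none of Egfl7, and 3149 cells met this. Endothelial cells were the 8966 cells with Egfl7 and under 2 of the fibroblast genes. The 470 Ptprc cells had this leukocyte gene and met neither rule. Another 421 cells had both the fibroblast genes and Egfl7, and 3377 cells had none of these combinations. Among genes that the rule did not use, Col6a3 was at 4.97 in fibroblasts and 0.305 in endothelial cells, and Fap at 2.83 and 0.104. Eng, an endothelial receptor of the TGF-β family, was at 1.26 in fibroblasts and 12.3 in endothelial cells, and Sox17, Sox18 and Procr were also higher in endothelial cells. Mecom, which had been listed as an endothelial gene, went against the label, at 32.0 in fibroblasts and 6.18 in endothelial cells. Ctss, a leukocyte protease, was at 5.92 in Ptprc cells and at 0.0785 or lower in both other groups.

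Tns1 was found in all 3 cell types, with the highest level in endothelial cells and the lowest in Ptprc cells. The Tns1 level was 5.45 UMIs per 10000 (5.39 to 5.51) in endothelial cells, 4.67 (4.58 to 4.77) in fibroblasts and 2.86 (2.65 to 3.08) in Ptprc cells, and no interval overlapped another. Fibroblasts stood at 0.857 times the endothelial level (0.838 to 0.877). The distance between these neighbors depended on the barcode run, with a ratio of 0.882 (0.861 to 0.904) for the first and 0.655 (0.607 to 0.706) for the second. The endothelial level was close in both runs, at 5.43 and 5.53, while the fibroblast level was 4.79 in the first and 3.62 in the second. The Tns1 level in endothelial cells was 1.91 times (1.77 to 2.06) that in Ptprc cells. With each cell thinned to 2000 UMIs, 59.1% of endothelial cells (58.0 to 60.2), 52.8% of fibroblasts (51.0 to 54.6) and 30.5% of Ptprc cells (26.1 to 35.2) had a Tns1 UMI. Before thinning, Tns1 was found in 83.1%, 80.8% and 45.1% of these cells, whose median depth was 5366, 6063 and 4851 UMIs. Shallower cells left out by thinning numbered 563, 92 and 54.

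Fat4 was highest in fibroblasts. Its level was 1.43 UMIs per 10000 (1.38 to 1.49) in fibroblasts, 0.247 (0.234 to 0.261) in endothelial cells and 0.119 (0.0800 to 0.171) in Ptprc cells, where 29 UMIs were counted. Fibroblasts stood at 5.80 times the endothelial level (5.44 to 6.19), and at 5.67 times in the first barcode run and 6.34 times in the second. Over Ptprc cells the ratio was 12.01 (8.34 to 18.0). It was 20.9 (8.87 to 65.0) in the second run, which had 5 Fat4 UMIs in Ptprc cells. After thinning to 2000 UMIs, 20.1% of fibroblasts (18.7 to 21.6), 4.07% of endothelial cells (3.66 to 4.51) and 2.16% of Ptprc cells (0.994 to 4.07) had a Fat4 UMI. Without thinning, 40.6%, 9.60% and 4.47% did. Whether the Fat4 UMIs of Ptprc cells came from those cells or from free RNA in the droplets was not tested.

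The low endothelial level of Fat4 was 2.07 times (1.43 to 3.10) that in Ptprc cells, with 1.77 (1.19 to 2.78) for the first run and 3.30 (1.40 to 10.3) for the second. As a share of its own fibroblast level, Fat4 was at 17.2% in endothelial cells and 8.33% in Ptprc cells. Col6a3 was at 6.14% and 6.04% on the same measure, and Fap at 3.69% and 24.6%. Postn, which encodes the matrix protein periostin, was at 76.8% and 10.6%. The part of free RNA in the endothelial level was not tested. Cells with both the fibroblast genes and Egfl7 had Fat4 at 0.857 and Tns1 at 5.16, and a median of 8709 UMIs.

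**Figure D1:**
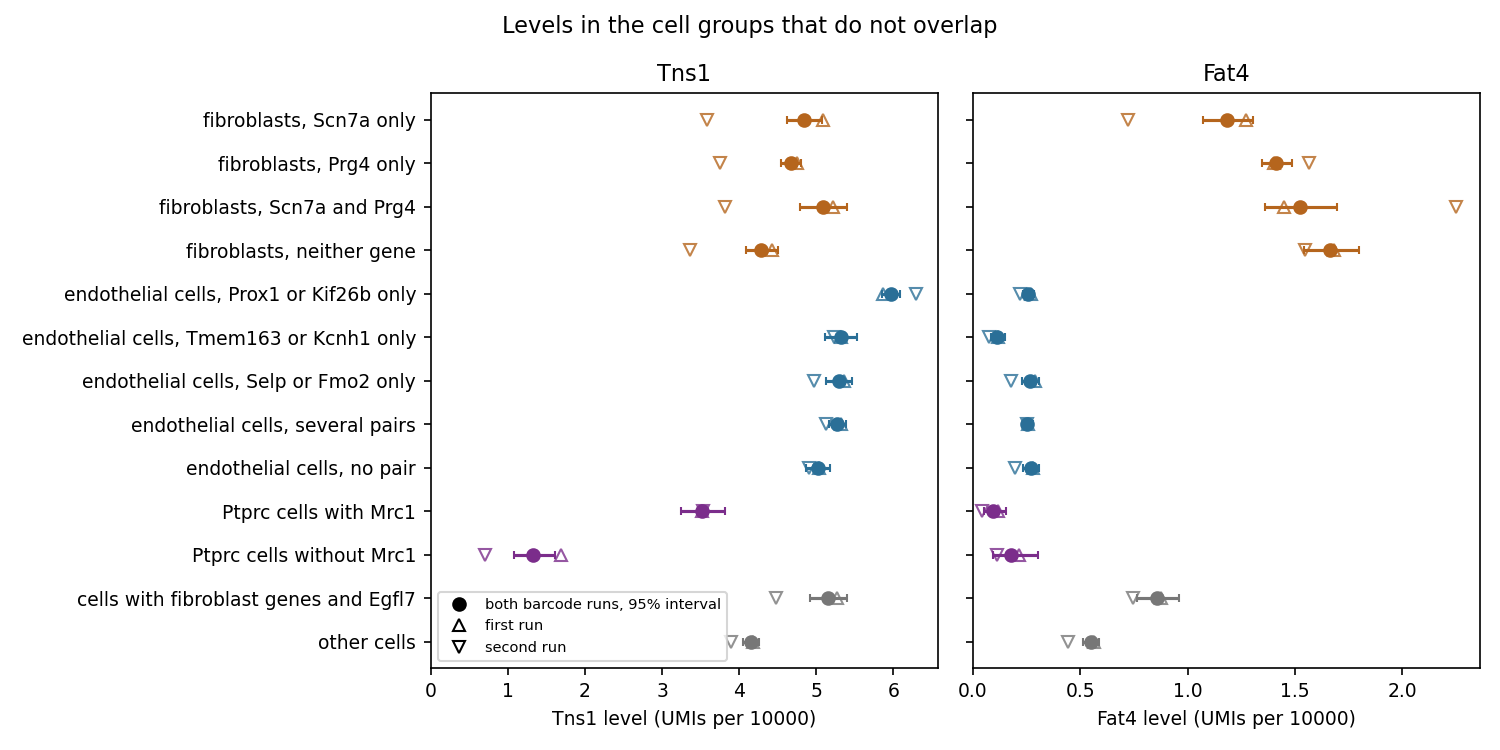
Levels of Tns1 (left) and Fat4 (right) in UMIs per 10000, in 13 cell groups that do not overlap. Circles are both barcode runs with 95% Poisson intervals and open triangles are single runs. Tns1 reaches 5.97 in endothelial cells with Prox1 or Kif26b alone, and the 4 fibroblast groups hold Fat4 at 1.18 to 1.67, above all endothelial and Ptprc groups.

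The UMIs of the genes were spread over cells in different ways. Fibroblasts are 19.2% of cells and held 54.0% of all Fat4 UMIs but 20.2% of all Tns1 UMIs. Endothelial cells are 54.7% of cells and held 23.9% of the Fat4 UMIs and 60.6% of the Tns1 UMIs. Within fibroblasts, 59.4% of cells had no Fat4 UMI, 18.1% had 1, 18.1% had 2 to 4 and 4.35% had 5 or more, up to 19. If all fibroblasts had 1 rate of Fat4 per UMI, 41.9% would have none, against the 59.4% found. The tenth of fibroblasts with most Fat4, picked by these same counts, held 52.7% of the Fat4 UMIs of that group. Tns1 reached 36 UMIs in a fibroblast and 68 in an endothelial cell, and 23.5% and 24.4% of these cells had 5 or more. Among the cells outside every group, 1296 had 1 of the 3 fibroblast genes and a Fat4 level of 0.939 (0.865 to 1.02), and 2081 had none of them and a level of 0.299 (0.266 to 0.335). These splits were chosen after values had been seen.

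Within fibroblasts, Tns1 differed by under 10% between cells with and without each splitting gene, and more between the ends of its range. Scn7a encodes a sodium channel and Prg4 encodes lubricin, a lubricating proteoglycan. Tns1 was at 4.94 in the 791 fibroblasts with Scn7a and 4.57 in the 2358 without it, a ratio of 1.08 (1.03 to 1.13) that was 1.01 (0.869 to 1.17) in the second run. For Prg4 the Tns1 levels were 4.74 in 1939 cells with it and 4.55 in 1210 without, and the interval of the ratio (0.998 to 1.09) includes 1. By amount of the splitting gene, Tns1 was at 4.99 (4.80 to 5.17) in the 755 fibroblasts with 10 or more Prg4 UMIs and between 4.52 and 4.603 in the bins with fewer. It was at 5.497 (4.92 to 6.127) in the 56 fibroblasts with 10 or more Scn7a UMIs, 4.62 with 3 to 9 and 5.12 with 1 to 2, so the order was not steady.

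The Fat4 level was lower in fibroblasts with Scn7a, at 1.31 against 1.48, a ratio of 0.885 (0.814 to 0.962). In the second run the ratio was 0.707 (0.543 to 0.913), and with all 3 fibroblast genes required it was 0.973 (0.871 to 1.09). The share of cells with Fat4 did not follow the level. After thinning to 2000 UMIs, 19.7% (16.9 to 22.6) of cells with Scn7a and 20.3% (18.6 to 22.0) without had a Fat4 UMI. In the second run these shares were 23.3% (15.1 to 33.4) and 15.1% (10.2 to 21.2). By amount of Scn7a, Fat4 was at 1.31 (1.17 to 1.45) with 1 to 2 UMIs and 1.23 (1.10 to 1.38) with 3 to 9. With 10 or more it was at 1.66 (1.35 to 2.03), against the direction of the other bins, in 56 cells with a median of 10040 UMIs. For Prg4 the pooled ratio of Fat4 levels was 0.995 (0.923 to 1.07), with 1.43 in cells with Prg4 and 1.44 in cells without. The runs went different ways, at 0.942 (0.871 to 1.02) in the first and 1.53 (1.21 to 1.94) in the second. Taken by both genes, Fat4 was at 1.18 (Scn7a alone), 1.41 (Prg4 alone), 1.52 (both) and 1.67 (neither). The level with Prg4 alone was 1.19 times (1.07 to 1.33) that with Scn7a alone, and 1.10 (0.981 to 1.24) and 2.16 (1.52 to 3.13) within the runs. The thinned shares did not show this difference, at 18.8% (16.9 to 20.8) with Prg4 alone and 18.8% (15.5 to 22.5) with Scn7a alone. In the second run they were 13.0% (7.27 to 20.8) and 17.6% (9.465 to 28.8). By amount of Prg4, Fat4 was at 1.67 in cells with 1 to 2 Prg4 UMIs, 1.501 with 3 to 9 and 1.25 (1.16 to 1.34) with 10 or more, against 1.44 with none. The summed level of 4 mural genes (Rgs5, Lmod1, Itga8 and Des) was 4.38 in fibroblasts with Scn7a alone (none at 0), 2.16 with Prg4 alone (none at 0), 3.001 with both (1 at 0) and 2.91 with neither (1 at 0), and its part in these levels was not tested.

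Endothelial cells were split by 3 pairs of genes. A pair is called alone where no gene of the other pairs was found. A single gene is called alone where the other gene of its pair was absent, whatever the other pairs. Such single-gene groups can share cells across pairs. Prox1, a transcription factor of lymphatic and valve endothelium, was taken with Kif26b, which encodes a kinesin-like protein. Tmem163, a zinc transporter, was taken with Kcnh1, a potassium channel, and Selp, the adhesion receptor P-selectin, with Fmo2, a flavin monooxygenase. Tns1 was at 5.68 in the 4935 endothelial cells with Prox1 or Kif26b and 5.13 in the 4031 without, a ratio of 1.11 (1.08 to 1.14). It was at 5.19 in the 3405 cells with Selp or Fmo2 and 5.62 in the others, a ratio of 0.925 (0.903 to 0.947). For Tmem163 or Kcnh1 the levels were 5.38 in 1918 cells and 5.47 in the others, and the interval of the ratio, 0.957 to 1.01, includes 1.

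That last ratio pooled cells of opposite level. The single genes of a pair were compared after values had been seen. Tns1 was at 3.83 (3.66 to 3.999) in the 668 endothelial cells with Tmem163 but no Kcnh1 and at 6.57 (6.39 to 6.76) in the 1153 with Kcnh1 but no Tmem163. The second level was 1.72 times (1.63 to 1.81) the first, and 1.75 and 1.62 times within the runs. In the 97 cells with both genes Tns1 was at 4.12 (3.69 to 4.58), near the cells with Tmem163 alone. With rising Kcnh1 UMIs per cell Tns1 rose from 5.29 (none) to 5.88 (1 to 2), 7.002 (3 to 9) and 7.13 (10 or more). With Tmem163 it was 5.65 without the gene and 3.77, 3.99 and 3.96 in the same bins. Cells with Tmem163 alone had a median of 7189 UMIs and those with Kcnh1 alone 5887.

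The other pairs differed within themselves by less. Tns1 was at 6.52 in the 575 cells with Kif26b alone and 5.29 in the 2842 with Prox1 alone, a ratio of 1.23 (1.17 to 1.29). It was at 5.48 with Fmo2 alone and 4.37 with Selp alone, a ratio of 1.25 (1.17 to 1.35). Both ratios lay on the same side of 1 in each run. Fat4 went the other way for the last pair, with Fmo2 alone at 0.776 times (0.598 to 1.02) the level with Selp alone. That rests on the second run, with 0.339 (0.203 to 0.589) there from 68 and 20 UMIs and 0.975 (0.719 to 1.35) in the first.

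Fat4 in endothelial cells was lower with Tmem163 or Kcnh1 than without. Its level was 0.164 in cells with either gene and 0.275 in the others, a ratio of 0.596 (0.513 to 0.689). Taken by run, this ratio was 0.560 for the first and 0.797 (0.494 to 1.23) for the second. In the 726 cells with Tmem163 or Kcnh1 and neither other pair, 53 Fat4 UMIs gave a level of 0.114, which was 0.955 times (0.596 to 1.56) that of Ptprc cells and could not be told from it at this depth. The genes of this pair differed for Fat4 too, at 0.117 (0.0891 to 0.1503) with Tmem163 alone and 0.205 (0.174 to 0.240) with Kcnh1 alone, a ratio of 1.75 (1.29 to 2.40). In the second run it was 2.37 (0.579 to 20.8), from 21 and 2 UMIs. Fat4 in cells with Kcnh1 but no Tmem163 was close to the 0.208 (0.188 to 0.230) of cells with Prox1 but no Kif26b. A cell can be in both of these groups. Cells with Prox1 or Kif26b and no other pair had 2.27 times (1.70 to 3.08) the level of 0.114, and those with Selp or Fmo2 alone 2.34 times (1.72 to 3.23). The summed level of 5 fibroblast genes (Col5a2, Col6a3, Fap, Postn and Prelp), none at 0, was 4.84 in the cells with Tmem163 or Kcnh1 alone, 10.8 with Prox1 or Kif26b alone and 5.999 with Selp or Fmo2 alone. This sum was lowest where Fat4 was lowest. In the groups with sums of 10.8 and 5.999, Fat4 was at 0.258 and 0.267. The part of the sum in the Fat4 levels was not tested.

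Cardiomyocyte genes also differed between the groups compared. The summed level of Tnnt2, Mybpc3, Xirp2 and Ttn was 1.52 (1.49 to 1.56) in endothelial cells (none at 0), 0.111 (0.0976 to 0.127) in fibroblasts, where Mybpc3 was at 0, and 0.317 (0.2502 to 0.396) in Ptprc cells (none at 0). Most of it was Ttn, at 1.07 in endothelial cells, while Tnnt2, the troponin T of heart muscle, was at 0.0327 there and 0.0383 in fibroblasts. Among endothelial cells the sum was 2.92 with Tmem163 or Kcnh1 alone (1 gene at 0), 1.08 with Prox1 or Kif26b alone and 1.21 with Selp or Fmo2 alone. Its part in the Tns1 and Fat4 levels was not tested.

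Fat4 rose with Kif26b, from 0.220 (0.206 to 0.235) in endothelial cells without it to 0.263, 0.327 and 0.427 (0.361 to 0.502) in cells with 1 to 2, 3 to 9 and 10 or more Kif26b UMIs. Tns1 went from 5.20 to 6.12, 6.01 and 6.68 in the same bins. Of the 6 splitting genes, Kif26b was the only one for which both members were higher in its last bin than in cells without it. The Fat4 ratio of Kif26b alone over Prox1 alone was 1.48 (1.17 to 1.86), but 0.668 (0.296 to 1.33) in the second run, where 9 Fat4 UMIs were counted with Kif26b alone. Of the other genes, Selp had a high last bin for Fat4, 0.910 (0.539 to 1.44), which rests on 18 UMIs in 20 cells.

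**Figure D2:**
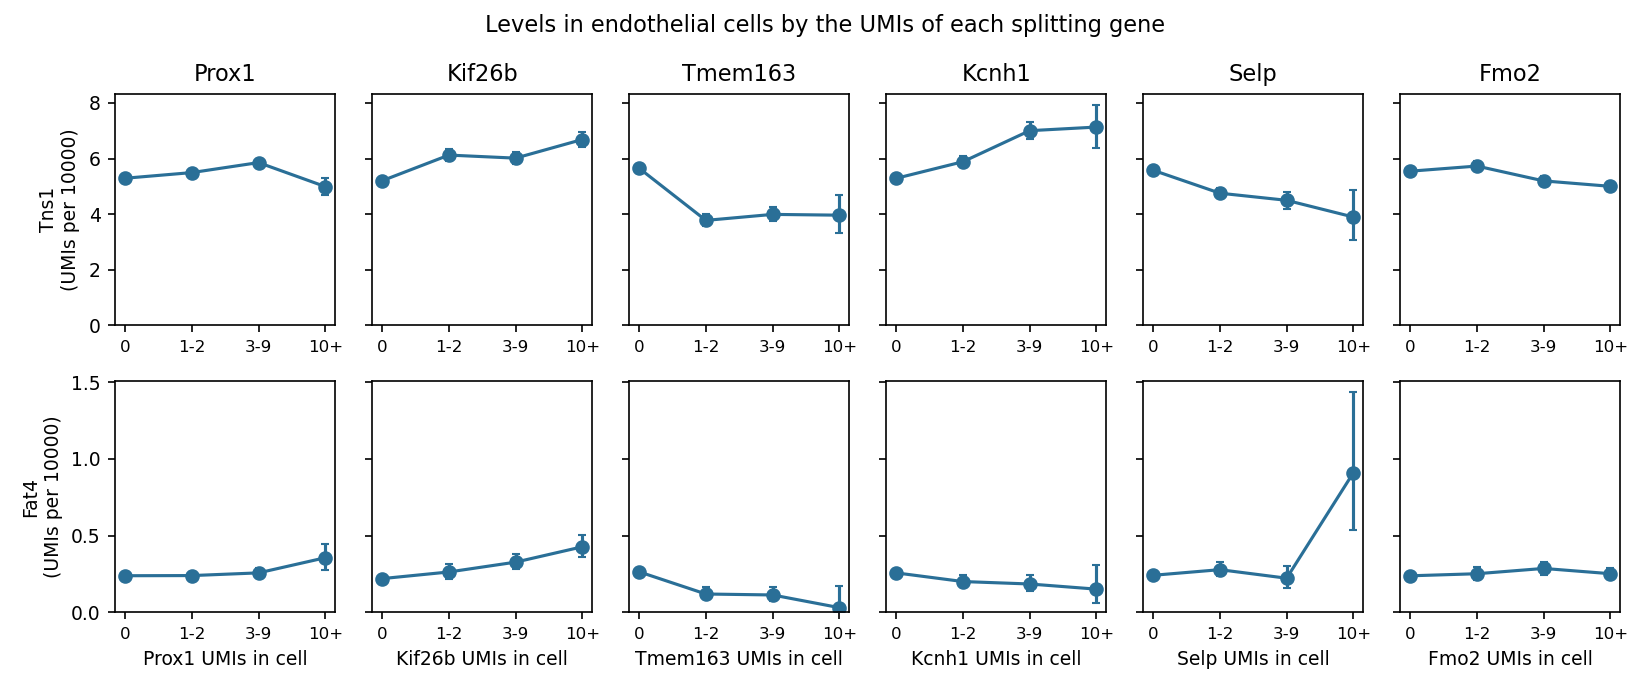
Levels of Tns1 (top) and Fat4 (bottom) in UMIs per 10000 in endothelial cells, by the number of UMIs of each splitting gene in the cell, with 95% Poisson intervals. Tns1 falls with Tmem163 to 3.77 to 3.99 and rises with Kcnh1 to 7.13. Fat4 rises with Kif26b to 0.427, and its last point for Selp is 20 cells.

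Ptprc cells were split by Mrc1, a mannose receptor of tissue macrophages. Tns1 was at 3.52 (3.24 to 3.81) in the 303 cells with Mrc1 and 1.33 (1.08 to 1.62) in the 167 without, a ratio of 2.65 (2.14 to 3.32). The ratio was 2.08 (1.63 to 2.69) for the first run and 4.997 (3.10 to 8.50) for the second, where the cells without Mrc1 had 19 Tns1 UMIs. Fat4 had 16 and 13 UMIs in these cells, and the interval of its ratio, 0.239 to 1.20, includes 1.

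Whether a cell with Tns1 more often had Fat4 was asked after thinning each cell to 2000 UMIs. Both genes were found in 346 of 3057 fibroblasts, or 11.3% (10.2 to 12.5), where the product of their shares gives 10.6%. The ratio of the observed to that share was 1.07 (0.962 to 1.18) in fibroblasts and 1.06 (0.923 to 1.21) in endothelial cells, where 214 of 8403 cells had both. Fat4 was found in 21.4% (19.5 to 23.5) of fibroblasts with Tns1 and in 18.6% (16.7 to 20.7) of those without. In endothelial cells these shares were 4.31% (3.76 to 4.91) and 3.72% (3.12 to 4.41). Over all 15105 cells of that depth the ratio was 1.03 (0.959 to 1.11). In each of these sets the product of the shares lay within the binomial interval of the observed share. The intervals of the ratios are that binomial interval divided by the product. They do not hold fixed the numbers of cells with each gene, so they cannot decide whether there was a small excess of cells with both.

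**Figure D3:**
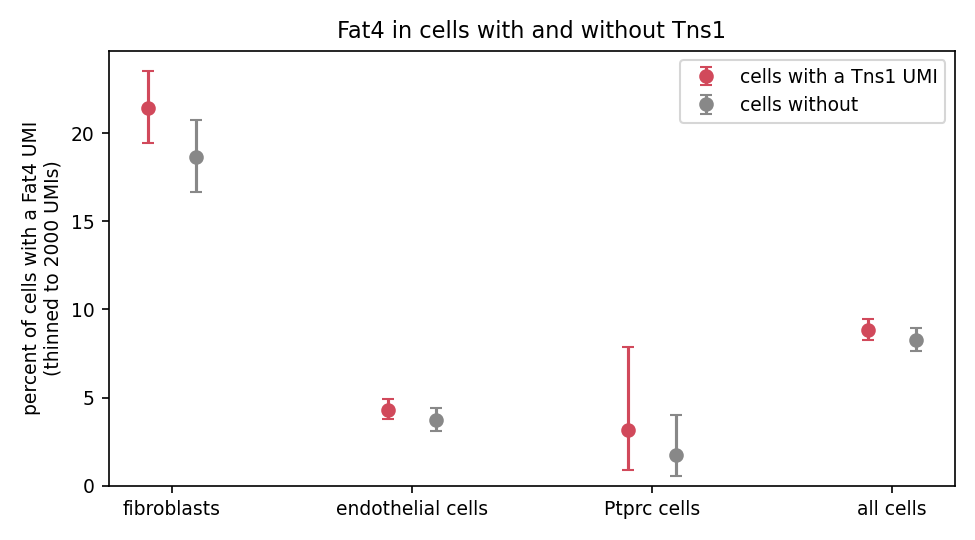
Percent of cells with a Fat4 UMI after thinning to 2000 UMIs, in cells with and without a Tns1 UMI, with 95% exact binomial intervals. The points of a cell group lie close, at 21.4% and 18.6% in fibroblasts, and the fibroblasts lie above the endothelial and Ptprc cells.

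Against the other genes of the matrix, Fat4 lay toward the fibroblast end and Tns1 near the middle. Of 2831 genes with at least 20 UMIs over fibroblasts and endothelial cells, 548 (19.4%) were at least 2-fold higher in fibroblasts and 443 (15.6%) at least 2-fold lower, with a median ratio of 1.04. Fat4 ranked 245 by ratio, among the genes past 2-fold, and Tns1 ranked 1846, between the limits. Over Ptprc cells, 23.3% of 2611 genes were at least 2-fold higher in fibroblasts and 19.1% at least 2-fold lower, and Fat4 ranked 94 and Tns1 740.

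**Figure D4:**
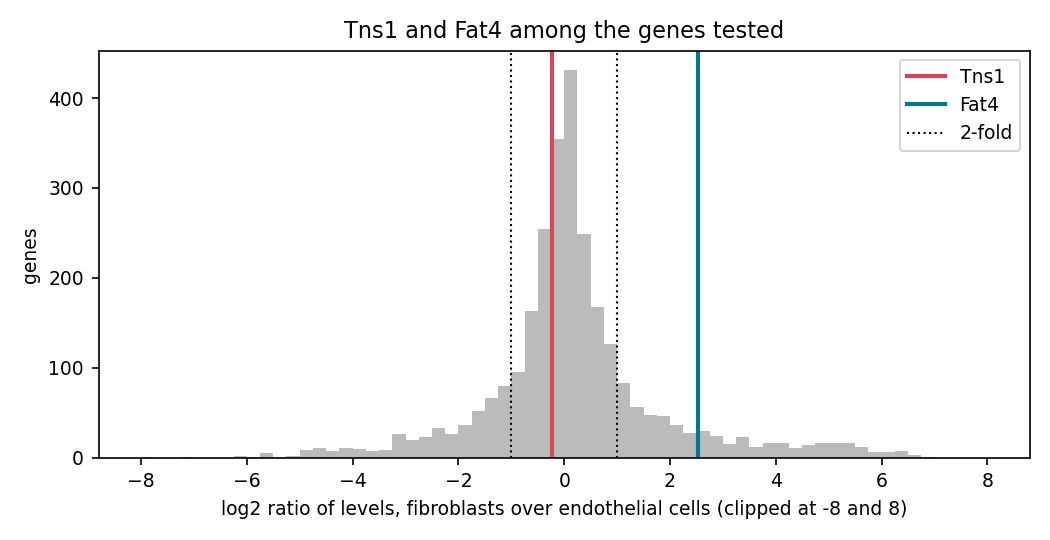
Histogram of log2 ratios of levels, fibroblasts over endothelial cells, for the 2831 genes tested. Colored lines mark Tns1, with a ratio of 0.857, and Fat4, with 5.80. Dotted lines mark 2-fold.

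Of 46 genes listed for the Fat and Dachsous system, planar polarity and Hippo signaling, 9 are in the matrix. The matrix used here holds genes of chromosomes 1, 2 and 3, so the absence of a gene says nothing of its expression. Dchs1 is among the absent genes, and the same limit holds for the lists below. In fibroblasts against endothelial cells, 3 of the 9 were at least 2-fold higher, 1 was at least 2-fold lower and 5 lay between. Over all genes tested, 19.4% were higher and 15.6% lower by that limit. The median ratio of the 9 was 1.11, against 1.04 over all genes. Dchs2, a Dachsous protocadherin and so of the family that binds Fat4, was at 0.566 in fibroblasts and 0.184 in endothelial cells, a ratio of 3.08 (2.83 to 3.36). It was 4.19 in the first run and 0.991 in the second, so its direction rests on the first. Fjx1, which belongs to the four-jointed family of kinases for Fat and Dachsous domains, had a ratio of 2.35 (1.24 to 4.44) from 21 and 23 UMIs, and 0.971 in the second run. Lix1l, a relative of Lix1, had a ratio of 2.20 (2.03 to 2.39). Crb1, an apical polarity protein, had 2 UMIs in fibroblasts and 135 in endothelial cells, a ratio of 0.0381 (0.00457 to 0.140). Wwtr1, the Hippo effector TAZ, was at 4.88 in fibroblasts, 5.64 in endothelial cells and 0.758 in Ptprc cells. Its fibroblast to endothelial ratio was 0.866 (0.847 to 0.886), and 0.898 and 0.584 within the runs. The kinase Stk4 had a ratio of 1.13 (1.06 to 1.20) and was highest in Ptprc cells, at 2.30. Vangl2, a core planar polarity protein, and the Wnt receptors Fzd5 and Fzd7 had ratios of 1.10, 0.789 and 1.11, with intervals that include 1.

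Of 57 genes listed for tensins, integrins and focal adhesions, 16 are in the matrix and 15 had at least 20 UMIs. Fermt1 did not, with 5 over both groups. Of the 15, 4 were at least 2-fold higher in fibroblasts, 3 were at least 2-fold lower and 8 lay between. These counts stand beside shares of 19.4% higher and 15.6% lower over all genes tested. The median ratio of the 15 was 0.847, against 1.04 over all genes. The highest ratios were those of Itga8 and Itga10, integrin α subunits, and of Enah, an actin regulator of focal adhesions. Itga8 was at 2.46 in fibroblasts and 0.0749 in endothelial cells, 32.8-fold apart (29.6 to 36.4). Itga10 had a ratio of 10.2 (9.22 to 11.3) and Enah of 4.57 (4.27 to 4.88). The lowest were Itga6, a laminin-binding integrin subunit, at 0.102 (0.0913 to 0.113), Arpc5, of the Arp2/3 complex that branches actin, at 0.437 (0.401 to 0.477), and Capn2, a protease that cuts focal adhesion proteins, at 0.451 (0.432 to 0.470). All 6 lay on the same side of 1 in each run.

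Of 22 genes listed for heart valve disease, 6 are in the matrix. Of these, 4 were at least 2-fold higher in fibroblasts, 1 was at least 2-fold lower and 1 lay between. Over all genes tested, 19.4% were higher and 15.6% lower by that limit. The median ratio of the 6 was 2.94, against 1.04 over all genes. The count and the median include Col3a1, whose direction the fibroblast rule set. The 4 higher genes encode matrix proteins. Fbn1, the gene of the mgR allele, was at 4.84 in fibroblasts and 2.04 in endothelial cells, a ratio of 2.37 (2.31 to 2.44) that was 1.41 in the second run. Col5a1 had a ratio of 12.5 (11.9 to 13.2) and Col5a2 of 3.51 (3.43 to 3.58). Col3a1 had 8.42, but it was used to choose the fibroblasts. Notch1, a receptor, was lower at 0.224 (0.212 to 0.238), and the ligand Tgfb2 was at 0.501 (0.478 to 0.525). Fat4 lay on the side of the collagens, and Tns1 was nearer to 1 than any of these 6.

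**Figure D5:**
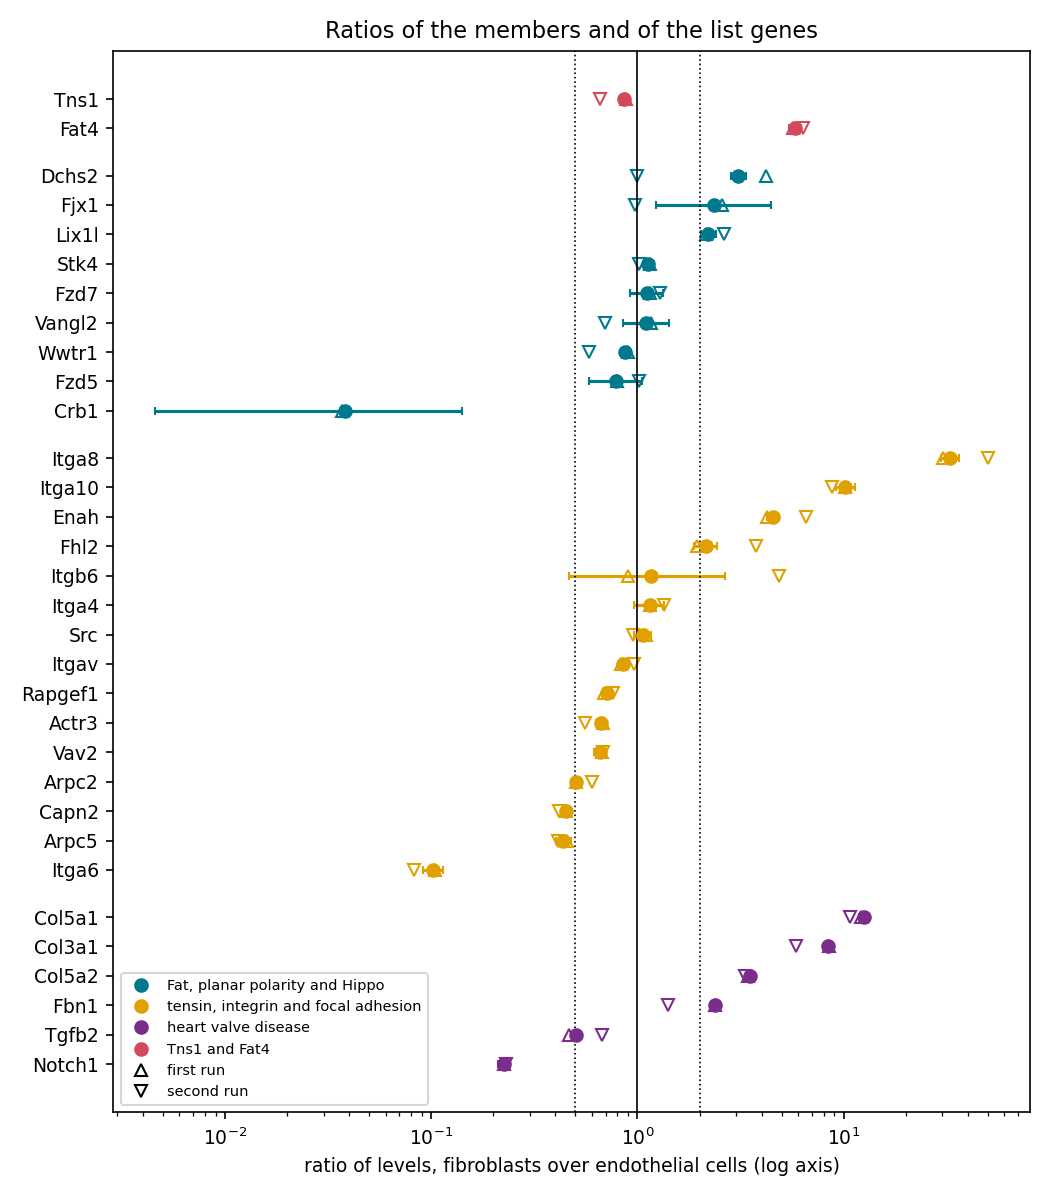
Ratio of levels, fibroblasts over endothelial cells, on a log axis for Tns1, Fat4 and the 30 list genes tested. Circles are both runs with 95% intervals, triangles are single runs, and dotted lines mark 2-fold. Dchs2 and Fjx1 lie past 2-fold in the pooled data and at 0.991 and 0.971 in the second run.

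The genes with the pattern most like each member were found by Pearson correlation of log2 levels over the 13 groups that do not overlap, among 1939 genes with at least 500 UMIs. The groups share libraries and are of unequal depth, so these values are descriptions. For Fat4 they were Lhfp (r = 0.977), Gulp1 (0.973), Casc4 (0.973), Arfgap1 (0.968) and Srsf6 (0.965). Lhfp was at 17.9 in fibroblasts, 3.38 in endothelial cells and 1.41 in Ptprc cells. Within the second run r was 0.949 for Lhfp and -0.17 for Srsf6. For Tns1 they included Rab13 (0.940), Ilkap (0.937), Hax1 (0.920) and Rem1 (0.903), and these fell to between 0.310 and 0.736 within the second run. Between Tns1 and Fat4 themselves r was 0.248.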

How the data were processed

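Expression was measured in single cells or single nuclei of mitral valves with droplet libraries (10x Genomics). Per the submitters' processing notes, Cell Ranger 7.1.0 and the mm10 build were used, and per the study's methods cells were filtered (200 to 5000 genes, under 10% mitochondrial reads) in Seurat 4.3.0. The authors normalized each cell to 10000 UMIs, added 1 and took the natural log, and deposited these values as 1 matrix over all libraries.

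From these, whole UMIs were recovered (100% within 0.02). A median of 841 UMIs per cell fell on the listed genes, which lie on chromosomes 1, 2 and 3. 1 gene with empty values was left out. A level is the UMIs of a gene summed by cell group, per 10000 UMIs of those cells over all genes. Doublets were not called, and cells with markers of both types were kept apart. With 1 pooled sample no count model was fitted, and genes are called past 2-fold. Named genes were the members, all measured genes of lists of 10 or fewer, the 3 highest and 3 lowest ratios of longer lists, and the 5 genes most like each member, of which 1 is not reported here. The members, lists and cell rules were chosen with earlier results of these data known. The steps were tested on simulated data. Python 3.11.15, numpy 2.4.6, scipy 1.17.1, pandas 2.3.3 and matplotlib 3.10.9 were used.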

Additional observations from a re-analysis of the deposited data

How the results depend on the processing

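Of 116 values from alternatives, 85 lay within the 95% interval of the value reported and 31 did not. For counts of genes the limit was 1.5 times the value. Among these alternatives, 0 of the ratios whose interval leaves out 1 changed direction. Ratios between the single genes of a pair and ratios of list genes were not among them. Some of those crossed 1 in the second run, such as Dchs2 at 0.991 and the Fat4 ratio of Kif26b alone over Prox1 alone at 0.668. The causes were not tested.

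The fibroblast to endothelial ratio of Tns1 was 0.882 and 0.655 in the first and the second barcode run alone, 0.807 with cells of at most 10000 UMIs, 0.813 with each cell given equal weight, 0.798 per 10000 UMIs on listed genes and 0.831 with at least 2 Egfl7 UMIs. That of Fat4 was 6.34 in the second run and 5.40 on listed genes. Over Ptprc cells the Tns1 ratio was 1.44 in the second run, 1.85 with equal weight and 1.25 with every Ptprc cell outside fibroblasts, and the Fat4 ratio was 20.9 in the second run. For Scn7a, Tns1 was at 1.01 in the second run and Fat4 at 0.707 there, at 0.803 with cells of at most 10000 UMIs and at 0.973 with all 3 fibroblast genes. For Prg4, Fat4 was at 1.53, 0.918 and 0.915 under these settings.

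For Prox1 or Kif26b, the second run gave 1.17 for Tns1 and 1.41 for Fat4, equal weight gave 1.07 and 1.01, and at least 2 Egfl7 UMIs gave 1.08 for Tns1. For Tmem163 or Kcnh1, Tns1 was at 1.013 with cells of at most 10000 UMIs and at 1.011 with at least 2 Egfl7 UMIs, and Fat4 at 0.797 in the second run. For Selp or Fmo2, Tns1 was at 0.949 and 0.831 in the runs. By differences of mean log values, 38 genes were past 2-fold higher and 29 lower, against 548 and 443, and such means include every cell without a UMI.

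Leaving out each library was not run, since the columns name none. No paired analysis was possible because the columns carry no replicate numbers and there is 1 group. Few Fat4 UMIs in Ptprc cells limit its ratios there, and intervals say nothing of differences between mice.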

Other observations

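Other cell types were chosen by single markers after values had been seen. Rgs5, a marker of mural cells, was found in 154 cells, of which 95 met the fibroblast rule. Fat4 was at 1.24 UMIs per 10000 (1.04 to 1.46) in these cells and Tns1 at 3.81 (3.45 to 4.18), against 1.43 and 4.67 in all fibroblasts. Lmod1, of smooth muscle, was found in 403 cells, 272 of them fibroblasts by the rule, with Fat4 at 1.27 (1.14 to 1.41) and Tns1 at 5.03 (4.77 to 5.30).

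Tnnt2 was found in 260 cells, 141 of them endothelial by the rule and 58 fibroblasts, with Tns1 at 5.60 (5.27 to 5.95) and Fat4 at 0.541 (0.440 to 0.657).

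Mlph, a melanocyte gene, was found in 252 cells outside every group, with Tns1 at 3.65 (3.33 to 3.99) and Fat4 at 0.897 (0.742 to 1.08) from 117 UMIs. The values depend on the limit: in the 80 of these cells with at least 3 Mlph UMIs, Tns1 was at 2.36 (1.91 to 2.87) and Fat4 at 0.192 (0.0830 to 0.379) from 8 UMIs. In the 77 cells with at least 2 of 8 mitotic genes Tns1 was at 3.10 and Fat4 at 0.350.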
